A study of Mus musculus with 8 samples.

Results

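The Hox, Cdx, Meis and Pbx genes were followed in neural progenitors with and without induced Bcl6. They were taken by gene symbol: every numbered gene of the Hoxa to Hoxd clusters, Cdx1, Cdx2 and Cdx4, and every numbered Meis and Pbx gene. Of the 49 such genes in the mouse annotation, 15 were among the 14954 genes of the expression table. These were 7 of 39 Hox genes, 1 of 3 Cdx genes, and all Meis and Pbx genes. The Hox genes described are Hoxa2, Hoxb13, Hoxc13, Hoxd1, Hoxd8 and Hoxd9. The other 34 genes are not listed in the table and were not analysed here.

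RNA was sequenced from 8 cultures of progenitors derived from A2lox.Cre Bcl6 mouse embryonic stem cells, a line in which a tetracycline-inducible promoter drives a Bcl6 transgene. All 8 cultures were differentiated in the defined medium DDM that held cyclopamine, which blocks hedgehog signalling, at 400 ng/ml, and were taken at day 12. The 4 Bcl6 cultures had 1 µg/ml doxycycline for the last 24 h, and the 4 control cultures had DMSO in its place. The stem cells had been propagated on irradiated mouse embryonic fibroblasts before they were plated on gelatin. All 8 cultures carried the transgene, and none had doxycycline without it, so the effects of Bcl6 and of doxycycline cannot be told apart. The labels number the differentiations 1 to 4 in each group, and nothing says whether the cultures were otherwise separate, so a p-value reflects only how far these libraries vary, which may be technical.

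Hox genes are homeobox transcription factors set in 4 clusters, and their order along a cluster follows the order of their domains along the body axis. Low paralogue numbers act in the hindbrain and high numbers in the trunk and tail, while the telencephalon forms without them. Cdx factors act above the Hox clusters in the posterior embryo, and Cdx2 is also required in the trophectoderm and the gut. Meis and Pbx proteins belong to the TALE homeodomain class and bind DNA together with Hox proteins, but they also have roles in forebrain and eye, where Hox genes are off. Bcl6 is a zinc-finger repressor of transcription.

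The 4 control libraries held 9.42 to 9.74 M reads and the 4 Bcl6 libraries 10.33 to 15.02 M, as recovered from the scaled values. Levels are given as CPM, each value as a share of its library's total, scaled to 1 M. Bcl6 itself stood at 6.61, 6.01, 7.12 and 6.21 CPM in controls 1 to 4 and at 393, 422, 427 and 325 CPM in Bcl6 libraries 1 to 4, with transgene and native gene counted together. Control 1 stood apart from the other controls along transcript length: across 14924 genes, which are not replicates, its deviation from the control mean had a Spearman rho of -0.64 with length, against 0.18, 0.38 and 0.44 in controls 2 to 4. The labels name the cells cortical progenitors. Of the telencephalic markers, Emx1, Hesx1 and Rax are not listed in the table, while Six3, Emx2, Otx1, Otx2, Pax6, Lhx2, Lhx5 and Fezf2 are among the 10 of 14 that are, with a summed level of 288.2 to 321.6 CPM in controls and 226.9 to 265.1 CPM in Bcl6 libraries.

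Cdx2 and Hoxd9 were the members called higher, so their promoters are shown, as the 250 bases before the RefSeq transcription start, 5′ to 3′ on the gene's strand (build GRCm38.p6). Cdx2 lies at chr5:147307250-147307499 on the minus strand and Hoxd9 at chr2:74697513-74697762 on the plus strand. The promoter of Hoxa2, chr6:52164832-52165081 on the minus strand, is set beside them because it was the matched member that held both a HOX-PBX type and a MEIS type motif. It was chosen after the search was seen. Capitals mark those motifs.
Cdx2: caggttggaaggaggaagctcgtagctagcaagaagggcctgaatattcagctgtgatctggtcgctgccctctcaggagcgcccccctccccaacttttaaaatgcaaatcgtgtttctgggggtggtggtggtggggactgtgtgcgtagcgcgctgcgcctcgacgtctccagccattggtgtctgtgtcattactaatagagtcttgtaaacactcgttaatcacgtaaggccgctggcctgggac
Hoxd9: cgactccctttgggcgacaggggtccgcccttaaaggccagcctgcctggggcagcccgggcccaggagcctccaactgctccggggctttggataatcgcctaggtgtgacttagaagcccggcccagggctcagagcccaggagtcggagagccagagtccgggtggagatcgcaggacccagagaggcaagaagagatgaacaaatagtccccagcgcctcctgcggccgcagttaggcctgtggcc
Hoxa2: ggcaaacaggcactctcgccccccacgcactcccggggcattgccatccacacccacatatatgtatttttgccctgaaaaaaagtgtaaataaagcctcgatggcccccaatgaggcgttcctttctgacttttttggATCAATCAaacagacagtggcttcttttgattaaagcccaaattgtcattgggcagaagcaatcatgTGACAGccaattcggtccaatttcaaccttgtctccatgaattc

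Promoters were matched by symbol for 10 of the 15 members. Each window of 300 bases, 250 before and 50 after the start, was searched on both strands for CAATAAA and CATAAA (CDX type), TTCNNNGAA and TTCCTNGAA (BCL6 and STAT type), TGATTNAT (HOX-PBX type) and TGACAG (MEIS type). Every TTCCTNGAA is also a TTCNNNGAA. Among all 32851 promoters of the same length, the shares holding them were 4.6%, 11.9%, 8.3%, 1.59%, 3.22% and 19.2%, in that order. In Hoxa2 the HOX-PBX type motif began at position -111 on the minus strand and the MEIS type motif at position -44 on the plus strand, counted from the start. Meis2 and Pbx4 each held a CAATAAA on the minus strand, at positions -213 and -33. The windows of Cdx2, Hoxd9, Hoxd8, Hoxd1, Meis1, Meis3 and Pbx2 held none of the 6 motifs, which says only that these letters are not in those windows. The printed bases were 55.2% G or C in Cdx2, 65.2% in Hoxd9 and 46.4% in Hoxa2, beside a median of 52.4% over all promoters.

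Over all 15 members, 2 were called higher after Bcl6 induction (Cdx2 and Hoxd9), none was called lower and 13 did not pass the test. A gene was called at an adjusted p under 0.05 by limma with Benjamini-Hochberg adjustment over the 14954 genes. Over all genes, 681 were called higher, which is 4.55%, and 338 lower, which is 2.26%, together 1019 genes or 6.81%. Under upper quartile scaling the split was 501 higher and 474 lower. At an unadjusted p under 0.05 there were 3 members, Cdx2, Hoxd9 and Meis1, and 3547 genes in all. Fold changes were positive for 6 members and negative for 9, with a median of -0.11 (log2), beside a median of 0.03 over all genes. Cdx2 was the member whose 4 Bcl6 libraries and 4 controls did not overlap, 1 of 15, while 16.9% of all genes had libraries that did not overlap.

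**Figure D1:**
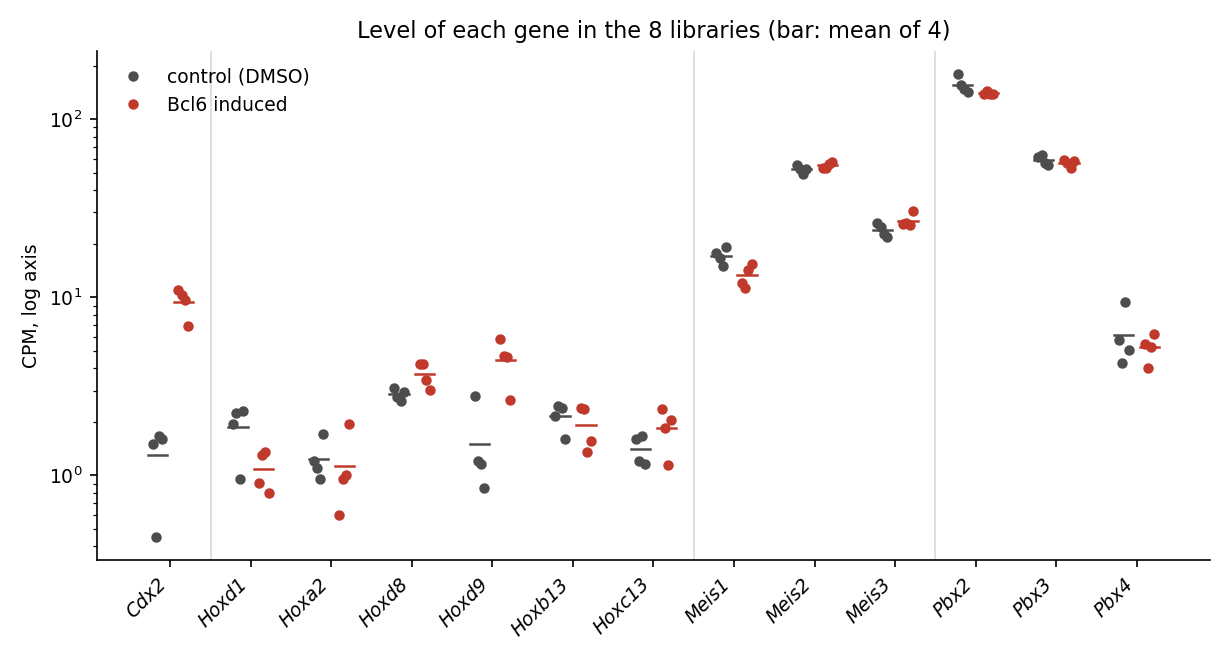
Level of the genes described here in each library, in CPM on a log axis, with controls in grey and Bcl6 libraries in red; points are libraries and bars are means of 4. The Cdx2 points separate into 2 sets, 0.451 to 1.66 CPM and 6.92 to 11.1 CPM, while the points of every other gene shown overlap between groups.

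Cdx2 (ENSMUSG00000029646, chromosome 5, 147300805 to 147307270, minus strand, mm10) showed the largest fold change of the 15. It stood at 1.503, 0.451, 1.66 and 1.60 CPM in controls 1 to 4 and at 11.1, 10.3, 9.67 and 6.92 CPM in Bcl6 libraries 1 to 4. The lowest Bcl6 library was thus above the highest control. The values rested on 14, 4, 16 and 15 reads in the controls and on 166, 113, 109 and 71 reads in the Bcl6 libraries. The mean rose from 1.303 ± 0.572 to 9.48 ± 1.80 CPM (SD, n = 4 each). The log2 fold change was 2.95 ± 0.36 (SE), with a 95% interval of 2.14 to 3.75 and a limma adjusted p of 0.0022, which corresponds to a fold change between 4.42 and 13.5. With each library left out in turn, the fold change stayed between 2.52 and 3.11 and the adjusted p was at most 0.0119. With the reads of all libraries thinned to those of the smallest, it was 2.97 (adjusted p = 0.00245).

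Cdx1 and Cdx4, the other Cdx genes, are not listed in the table. Cdx2 lies within the ParaHox cluster, and of the other ParaHox genes Gsx1, a factor of ventral forebrain progenitors, was the 1 listed. Gsx1 starts 118.6 kb from Cdx2 and stood at 2.86 ± 0.97 CPM in controls and 1.73 ± 1.0 CPM in Bcl6 libraries (log2 fold change -0.89 ± 0.44 (SE), adjusted p = 0.247). Pan3, a subunit of a poly(A) nuclease that starts 122.9 kb to the other side, had a fold change of 0.04 ± 0.13 (adjusted p = 0.894). D5Ertd605e, which starts 111.3 kb away, stood at 0.79 ± 0.39 (adjusted p = 0.246), so none of these 3 neighbours passed the test.

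The Hox genes were low. They lay between the 2.4 and the 15.7 percentile of mean level over the table, and Cdx2 lay at the 21.6 percentile. The lowest mean of any gene in the table was 0.758 CPM, and the lowest group mean of any member was 1.09 CPM (Hoxd1 with Bcl6), so every listed member was above that level in both groups.

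Of the anterior group, paralogues 1 to 4, Hoxa2 and Hoxd1 did not pass the test. Hoxa2 (chromosome 6, 52162417 to 52164831, minus strand), a gene of the second branchial arch and the hindbrain, ranged from 0.953 to 1.70 CPM in controls and from 0.601 to 1.96 CPM with Bcl6 (fold change -0.22 ± 0.35, interval -1.00 to 0.56, adjusted p = 0.75). It turned to 0.0241 without Bcl6 library 1.

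Hoxd1 (chromosome 2, 74762980 to 74765142, plus strand) ranged from 0.953 to 2.31 CPM in controls and from 0.802 to 1.35 CPM in Bcl6 libraries, and control 3 fell inside the Bcl6 range. The fold change was -0.71 ± 0.32 (interval -1.42 to 0.01, adjusted p = 0.216). Gm28308 shares exonic bases with Hoxa2 on the same strand, so its count depends on how reads were assigned.

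Of the middle group, paralogues 5 to 8, Hoxd8 was the 1 gene of 11 listed. Hoxd8 (chromosome 2, 74704615 to 74707933, plus strand) stood at 3.11, 2.76, 2.61 and 2.96 CPM in controls and 4.21, 4.21, 3.46 and 3.01 CPM in Bcl6 libraries. Bcl6 library 4 lay below control 1, and the other Bcl6 libraries lay above every control. The fold change was 0.36 ± 0.18 (interval -0.02 to 0.75, adjusted p = 0.235), which did not pass the test.

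Of the posterior group, paralogues 9 to 13, 3 of 16 genes were listed and 1 of them rose, Hoxd9, a gene of the lumbar trunk and the limb. Hoxd9 (ENSMUSG00000043342, chromosome 2, 74697727 to 74700208, plus strand) stood at 2.81, 1.202, 1.15 and 0.852 CPM in controls 1 to 4 and at 5.81, 4.71, 4.61 and 2.66 CPM in Bcl6 libraries 1 to 4. Control 1 was above Bcl6 library 4, so the groups overlap by these libraries. The reads behind these values were 26, 11, 11 and 8 in controls and 87, 52, 52 and 27 with Bcl6. The mean was 1.503 ± 0.882 CPM in controls and 4.45 ± 1.31 CPM with Bcl6 (SD, n = 4). The fold change was 1.63 ± 0.36 (log2, SE; interval 0.84 to 2.41, limma adjusted p = 0.024), a fold between 1.79 and 5.32.

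The call of Hoxd9 depended on single libraries. Leaving out control 2 gave a limma adjusted p of 0.0792, and leaving out control 4 gave 0.0502. Leaving out Bcl6 libraries 1, 2 and 3 gave 0.0871, 0.079 and 0.0589, so the call was lost in those 5 fits. It was 0.0028 without control 1, where the fold change was 1.97. Over the 8 fits the fold change stayed between 1.41 and 1.97. The fold change was thus positive in all 8 fits and passed the test in 3.

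Hoxb13 and Hoxc13, the last paralogues of their clusters, did not pass the test. Hoxb13 (chromosome 11, 96194316 to 96197447, plus strand), a gene of tail and hindgut, stood at 2.15, 2.45, 2.41 and 1.60 CPM in controls and 2.41, 2.36, 1.35 and 1.55 CPM with Bcl6 (fold change -0.19 ± 0.25, interval -0.75 to 0.37, adjusted p = 0.697). Hoxc13 (chromosome 15, 102921103 to 102928814, plus strand), a gene of hair and nail, stood at 1.60, 1.202, 1.66 and 1.15 CPM in controls and 2.36, 1.85, 1.15 and 2.06 CPM with Bcl6 (fold change 0.36 ± 0.27, interval -0.23 to 0.96, adjusted p = 0.442). In each gene the groups overlap. The posterior sum was 5.06 ± 1.22 CPM in controls and 8.22 ± 1.92 CPM with Bcl6. This sum includes Hoxd9, whose mean went from 1.503 to 4.447 CPM, so the difference came mainly from that gene. Without Hoxd9, the other 6 listed Hox genes summed to 10.938 ± 1.21 CPM in controls and 10.848 ± 1.228 CPM with Bcl6.

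**Figure D2:**
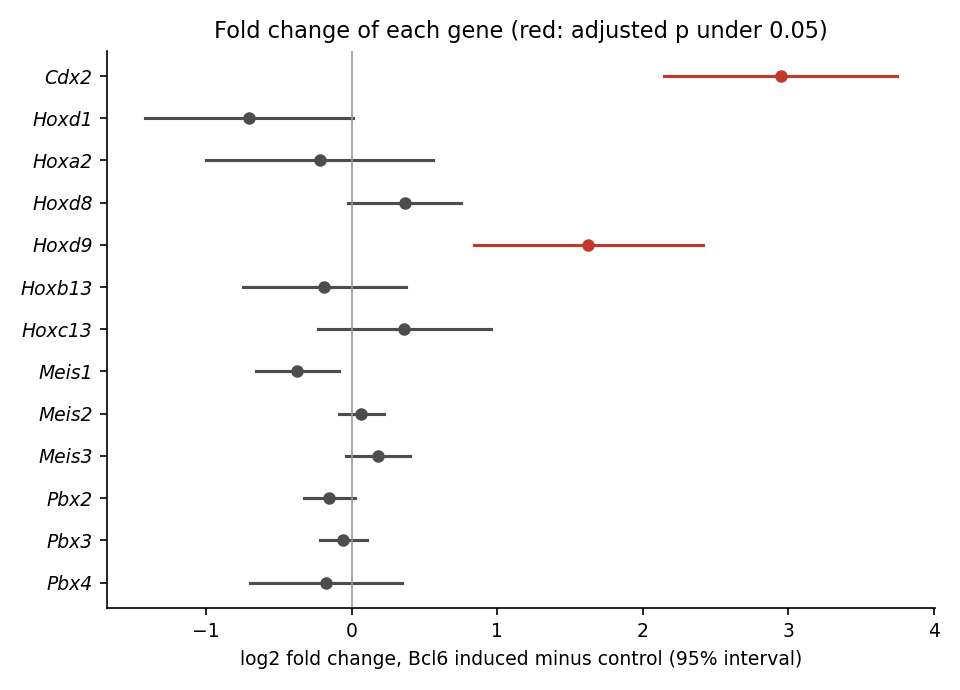
Fold change of each gene described here, Bcl6 induced minus control on the log2 scale, with its 95% interval; red marks an adjusted p under 0.05. Cdx2 at 2.95 and Hoxd9 at 1.63 lie to the right of zero with their intervals, the interval of Meis1 lies to the left without passing the adjusted test, and the other 10 intervals cross zero.

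Along the HoxD cluster the listed genes had the following fold changes, and no difference between a pair of HoxD genes passed the adjusted test. From the posterior end, Evx2 starts 38.2 kb from Hoxd9, Hoxd8 starts 6.9 kb on and Hoxd1 65.3 kb on. Their fold changes, in that order with Hoxd9 between Evx2 and Hoxd8, were 1.89 ± 0.44, 1.63 ± 0.36, 0.36 ± 0.18 and -0.71 ± 0.32 (log2, SE). The log2 ratio of Hoxd8 to Hoxd9 was 1.047 ± 0.662 in controls and -0.21 ± 0.29 with Bcl6 (SD, n = 4). The difference had an exact two-sided permutation p of 0.0571, or 0.1714 adjusted over the 30 pairs of genes tested within the Hox, Meis and Pbx families. The log2 ratio of Hoxd1 to Hoxd9 was 0.37 ± 0.91 in controls and -1.96 ± 0.45 with Bcl6, without overlap. Its exact permutation p was 0.0286, or 0.1429 adjusted. Of the 30 pairs, 6 did not overlap between groups. As 4 libraries against 4 can give no smaller p than 0.0286, a pair could pass the adjusted test only together with many other pairs. Hoxd10 to Hoxd13, which lie between Evx2 and Hoxd9, and Hoxd3 and Hoxd4 are not listed.

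Evx2, an even-skipped homeobox gene at the end of the cluster, stood at 0.15, 0.351, 0.552 and 0.752 CPM in controls and 2.15, 2.00, 1.35 and 1.10 CPM in Bcl6 libraries, with no overlap. It rose with an adjusted p of 0.029. Its control mean, 0.451 CPM, was under the lowest mean level of any gene in the table, so it was listed through its Bcl6 libraries. The call was lost without control 2 (0.085) and without Bcl6 libraries 1, 2 and 3 (0.108, 0.0997 and 0.0573). Haglr, a long non-coding RNA read from the other strand beside Hoxd1, stood at 1.18 ± 0.43 CPM in controls and 0.526 ± 0.404 CPM with Bcl6, and did not pass the test (-1.25 ± 0.50, adjusted p = 0.157). Outside the cluster, Lnpk (0.01 ± 0.13, adjusted p = 0.967) and Mtx2 (-0.20 ± 0.10, adjusted p = 0.261) did not pass either.

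The even-skipped gene of the HoxA cluster, Evx1, starts 148.7 kb from Hoxa2 at the far end of that cluster. It stood at 0.551, 0.25, 0.351 and 0.551 CPM in controls and 1.60, 1.10, 1.35 and 1.86 CPM in Bcl6 libraries. These do not overlap, and the fold change was 1.72 ± 0.33 (adjusted p = 0.014). The call was lost without Bcl6 library 1 (0.0608), and its control mean of 0.426 CPM was under the lowest mean of the table. The 9 HoxA genes between Hoxa2 and Evx1 are not listed. Within 150 kb of the 15 members there were 44 other genes of the table, and 3 of them were called. Over all genes 6.81% were called, so this count is near that share. The 3 were Evx1, Evx2 and Cilp2, a matrix protein gene 55.2 kb from Pbx4 (0.95 ± 0.25, adjusted p = 0.0432). Evx1, Evx2 and Cilp2 were singled out after their values were seen.

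**Figure D3:**
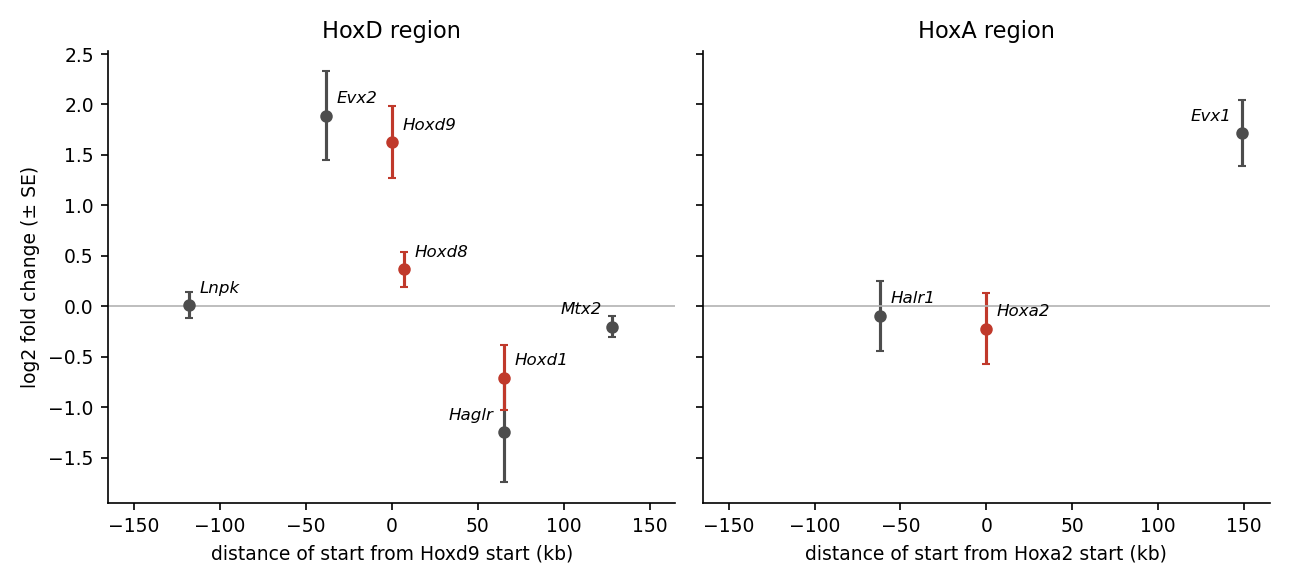
Fold change (log2, ± SE) of listed genes against the distance of their start from the start of Hoxd9 or of Hoxa2, in kb, with Hox genes in red and other genes in grey. In the HoxD region the values are 1.89 at Evx2, 1.63 at Hoxd9, 0.36 at Hoxd8 and -0.71 at Hoxd1. In the HoxA region they include 1.72 at Evx1 and -0.22 at Hoxa2, which turns positive without Bcl6 library 1. Evx1 and Evx2 were listed only through their Bcl6 libraries, so they could be seen only as higher, and unlisted Hox genes lie beside them.

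Meis genes encode TALE factors that bind with Hox and Pbx proteins and that also act in eye and forebrain. None of the 3 passed the test, and Meis1 had an unadjusted p under 0.05. Meis1 (chromosome 11, 18879817 to 19018985, minus strand) stood at 17.7, 16.6, 15.1 and 19.2 CPM in controls and 12.1, 11.3, 14.3 and 15.5 CPM with Bcl6. Bcl6 library 4 lay above control 3, and the other Bcl6 libraries lay below every control. The mean was 17.2 ± 1.74 CPM in controls and 13.3 ± 1.95 CPM with Bcl6, and the fold change was -0.37 ± 0.13 (interval -0.66 to -0.09, adjusted p = 0.109). It passed the test when libraries were weighted by their quality (-0.47, adjusted p = 0.0224) and in no other fit. Gm16140, antisense, and Gm37818, on the same strand, share exonic bases with Meis1.

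Meis2 (chromosome 2, 115863064 to 116065839, minus strand) stood at 55.5, 52.6, 49.5 and 52.5 CPM in controls and 53.6, 53.3, 55.9 and 57.4 CPM with Bcl6. Its groups overlap, and the fold change was 0.07 ± 0.07 (interval -0.09 to 0.22, adjusted p = 0.6). Meis3 (chromosome 7, 16175090 to 16186504, plus strand), which acts in the hindbrain, stood at 26.3, 24.9, 22.6 and 21.7 CPM in controls and 25.7, 26.1, 25.6 and 30.7 CPM with Bcl6 (0.18 ± 0.10, interval -0.04 to 0.40, adjusted p = 0.3). The ratios of Meis1 to the other Meis genes had lower means with Bcl6, without passing the adjusted test. The log2 ratio of Meis1 to Meis2 was -1.62 ± 0.12 in controls and -2.06 ± 0.16 with Bcl6, and that of Meis1 to Meis3 was -0.48 ± 0.20 and -1.03 ± 0.16 (SD, n = 4). Neither ratio overlapped between groups, as was so for 6 of the 30 pairs tested. The transcripts are 7553 bases long for Meis1, 3718 for Meis2 and 1839 for Meis3. Libraries differed along transcript length, and the part of length in these ratios was not tested. Each of the 2 ratios had an exact two-sided permutation p of 0.0286, the smallest that 4 libraries against 4 can give. Adjusted over the 30 pairs it was 0.1429, so neither passed.

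Pbx genes encode the other TALE partners of Hox proteins and were the most abundant of the 4 families. The fold changes of Pbx2, Pbx3 and Pbx4 were negative, and none of them passed the test. Pbx2 (chromosome 17, 34591266 to 34597400, plus strand) stood at 180, 156, 147 and 143 CPM in controls and 139, 145, 139 and 139 CPM with Bcl6 (-0.15 ± 0.08, interval -0.33 to 0.02, adjusted p = 0.266). Control 1 was the highest Pbx2 library, and Bcl6 library 2 lay above control 4. With the trend on transcript length and GC content taken off, Pbx2 was called lower (-0.23, adjusted p = 0.0459), and without control 1 its fold change was -0.08 (adjusted p = 0.324). Gpsm3 shares exonic bases with Pbx2 on the same strand.

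Pbx3 (chromosome 2, 34171457 to 34373142, minus strand) stood at 61.5, 62.8, 56.6 and 55.5 CPM in controls and 58.9, 56.6, 53.5 and 58.1 CPM with Bcl6 (-0.06 ± 0.07, interval -0.22 to 0.11, adjusted p = 0.689). Pbx4 (chromosome 8, 69832491 to 69872292, plus strand), known from the testis, stood at 5.76, 4.26, 9.38 and 5.06 CPM in controls and 5.46, 4.01, 5.26 and 6.22 CPM with Bcl6 (-0.17 ± 0.24, interval -0.70 to 0.35, adjusted p = 0.701). In both genes the groups overlap, and Pbx4 turned to 0.0515 without control 3. The sum of the 3 Meis genes was 93.6 ± 5.02 CPM in controls and 95.3 ± 5.93 CPM with Bcl6.

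Per kb of transcript, which allows levels to be compared between genes, the genes described here ranked in the controls with Pbx2 and Pbx3 first, at 51.0 and 21.6 CPM per kb. Meis2 and Meis3 followed at 14.1 and 12.98 CPM per kb, and Pbx4 and Meis1 at 3.92 and 2.27 CPM per kb. The 6 Hox genes stood between 0.57 CPM per kb (Hoxc13) and 1.09 CPM per kb (Hoxd8), and Cdx2 stood at 0.576 CPM per kb. Next-ranked genes among these low ones differed by less than the larger of their SDs. With Bcl6, Cdx2 stood at 4.19 CPM per kb, above these Hox genes, of which Hoxd9 was the highest at 2.08 and Hoxd8 followed at 1.41 CPM per kb. In bulk RNA a change in the number of cells that express a gene and a change in RNA per cell cannot be told apart.

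**Figure D4:**
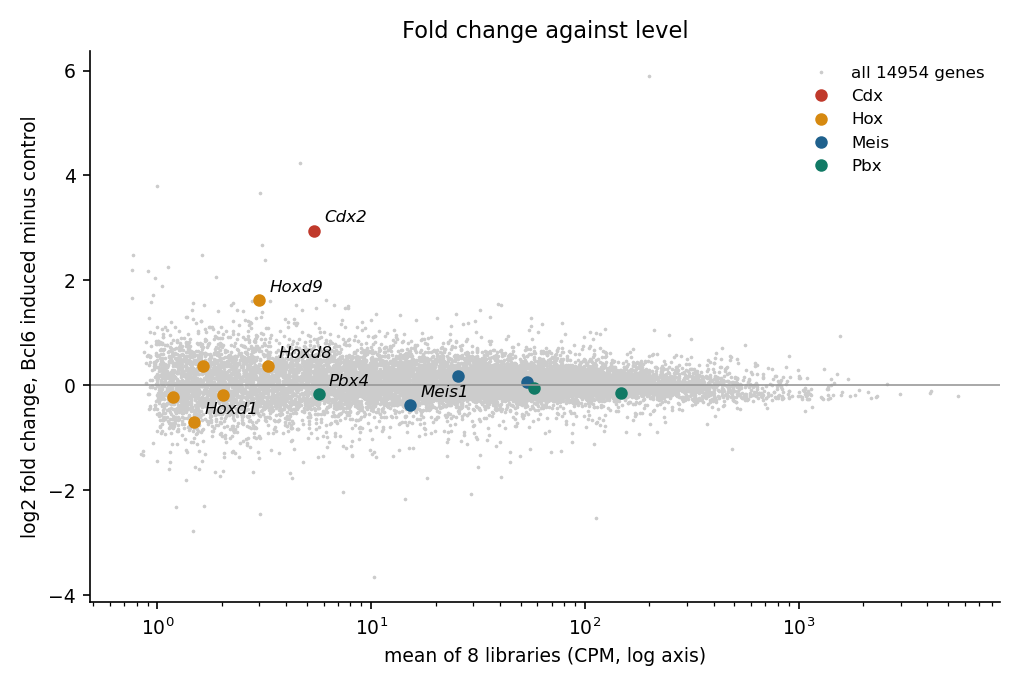
Fold change (log2) of all 14954 genes in grey against their mean level in CPM on a log axis, with the Cdx, Hox, Meis and Pbx genes described here in colour. Cdx2 and Hoxd9 lie above the grey band at their level, and the Meis and Pbx genes lie near zero at higher levels.

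Genes that work around the Hox system were counted in lists. Over all genes, 4.55% were called higher and 2.26% lower. Of 19 listed genes of the posterior growth zone, the tail-end region where Cdx and Hox genes are switched on, 5 were called higher and none lower, and the list's median fold change was 0.06. T, the mesoderm and tailbud factor brachyury, rose from 20.9 ± 3.13 to 59.9 ± 2.29 CPM (1.53 ± 0.11, adjusted p = 0.000107). Gdf11, a ligand that sets the trunk-to-tail step of Hox expression, rose from 20.4 ± 1.67 to 30.4 ± 4.96 CPM (adjusted p = 0.0217). Evx1, Evx2 and Sall4 made up the rest of the 5, and Evx1 and Evx2 were listed only through their Bcl6 libraries, so they could be seen only as higher. The count of higher genes was 2 without control 2, Bcl6 library 1 or Bcl6 library 3, and 3 without Bcl6 library 2. Gdf11 was lost without control 2 (0.07) and Bcl6 library 3 (0.0542). Sall4 held in 4 of the 8 fits without 1 library and was lost once the trend on length and GC content was removed. Fgf15 went from 53.1 ± 8.64 to 27.2 ± 13.7 CPM (limma adjusted p = 0.0527). Wnt3a went from 6.72 ± 1.31 to 3.78 ± 1.70 CPM (limma adjusted p = 0.0915). The count of lower genes was 1 under upper quartile scaling and 2 with array weights or with that trend removed.

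Retinoic acid is a main inducer of anterior Hox genes. Of 17 listed genes of its response, 1 was called higher and 2 lower, with a median of 0.04. The lower count was 5 once the trend on length and GC content was removed, and 0 without Bcl6 library 1. Crabp1, a cytoplasmic retinoic acid binding protein, rose from 40.5 ± 8.34 to 80.8 ± 6.85 CPM (adjusted p = 0.00276). Dhrs3, an enzyme that lowers retinaldehyde, fell from 10.4 ± 1.86 to 5.85 ± 0.70 CPM (adjusted p = 0.0132), and Cyp26b1, which degrades retinoic acid, fell from 14.7 ± 1.046 to 6.35 ± 3.32 CPM (adjusted p = 0.0282). Cyp26b1 was lost in 5 of the 8 fits without 1 library (without controls 2, 3 and 4 and Bcl6 libraries 1 and 2), with an adjusted p of up to 0.0831, and Dhrs3 without Bcl6 library 1 (0.0531).

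Of the 11 other TALE genes, 3 were called lower and none higher: Irx2, Irx3 and Pknox2. Irx2 went from 24.1 ± 1.53 to 15.7 ± 2.98 CPM (adjusted p = 0.0204) and Irx3 from 21.6 ± 6.03 to 9.86 ± 4.11 CPM (adjusted p = 0.0372), both factors of neural patterning. The count fell to 0 without control 2 or Bcl6 library 1 or 2, and to 1 without control 4 or Bcl6 library 3. Irx2 and Irx3 were also the 2 of 8 hindbrain segmentation genes called, both lower. Of 24 Polycomb and trithorax genes, which hold Hox clusters silent or active, Ezh2 alone was called, lower, from 179.7 ± 12.1 to 144.7 ± 14.5 CPM (adjusted p = 0.0482), and it was lost in 6 of 8 fits without 1 library. The count of lower genes in this list was 5 once the trend on length and GC content was removed, 3 with array weights, and 0 with thinned reads or without the variance trend. Of 10 listed telencephalic and anterior genes, Lhx2 was called higher and Otx2 lower. Of 11 midbrain genes Lmx1b was called, higher. En2 went the other way, from 18.8 ± 2.63 to 12.6 ± 2.82 CPM, without passing (limma adjusted p = 0.0571). The count of lower midbrain genes was 1 under upper quartile scaling, with thinned reads or with the trend on length and GC content removed. It was 3 with array weights.

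Markers of other cells in which these genes are expressed were counted in the same way, beside 4.55% called higher and 2.26% lower over all genes. Of 10 listed trophectoderm markers, where Cdx2 is a defining factor, 4 were called higher and none lower: Tfap2c from 34.7 ± 1.75 to 76.6 ± 5.73 CPM (adjusted p = 0.000107), Eomes from 13.03 ± 0.26 to 24.9 ± 1.63 CPM, Krt8 and Krt18. The Krt18 call (adjusted p = 0.049) held in 2 of the 8 fits without 1 library, with an adjusted p of up to 0.159. Ascl2 went the other way, from 2.54 ± 0.76 to 1.62 ± 0.34 CPM, without passing (limma adjusted p = 0.161). Gata3, Tead4, Hand1, Krt7 and Plac1 had positive fold changes that did not pass the test. The summed level of the 10 listed markers was 383.4 to 473.5 CPM in controls and 583.2 to 655.8 CPM in Bcl6 libraries. Its largest parts were Krt8, from 161.9 ± 22.1 to 236.8 ± 6.95 CPM, and Krt18, from 149.2 ± 21.2 to 199.1 ± 22.6 CPM. Elf5, a defining gene of that lineage, is not listed. For gut endoderm 1 of 12 was called higher and 1 lower, with sums of 590.9 to 666.2 and 698.7 to 811.2 CPM. The higher call was Cdh1, the largest part of this sum, from 250.8 ± 26.6 to 352.6 ± 19.6 CPM. Foxa2 and Foxa3 had negative fold changes and the other uncalled markers positive ones. The lower call, Foxa1, went from 24.3 ± 3.29 to 15.7 ± 4.10 CPM. It was lost without control 2 or 4 or Bcl6 library 1, 2 or 3, with an adjusted p of up to 0.154. For mesoderm 0 of 9 were called, with sums of 66.0 to 84.2 and 74.5 to 103.3 CPM. An unadjusted p under 0.05 was found for 3 of these 9, 7 of 10 trophectoderm and 6 of 12 gut endoderm markers. Over all 14954 genes there were 3547. The part of these cells in the rise of Cdx2 was not tested.

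For fibroblasts, the feeder cells and a cell type rich in Hox RNA, 1 of 13 listed markers was called lower and none higher, and the sums were 678.0 to 826.2 CPM in controls and 687.5 to 823.2 CPM with Bcl6. Twist2, Tbx5 and Fap are not listed. Pluripotency markers summed to 2132 to 2263 CPM in controls and 2040 to 2342 CPM with Bcl6, with 5 of 10 called higher and 1 lower. Neural progenitor markers summed to 1581 to 2020 and 1097 to 1447 CPM, with 7 of 10 called lower, and neuron markers to 867.6 to 1063 and 1408 to 1678 CPM, with 6 of 10 called higher. For spinal cord and hindbrain neurons 4 of 9 were called higher (Lhx1, Tlx3, Pou4f1 and Evx1), with sums of 55.8 to 71.5 and 74.1 to 89.1 CPM, and Evx1 was listed only through its Bcl6 libraries. For neural crest 3 of 9 were called higher, with sums of 106.2 to 126.1 and 142.5 to 167.3 CPM. Among these 3, the call of Tfap2a (adjusted p = 0.0437) held in 1 of the 8 fits without 1 library. Among the neuron markers called, that of Nefm held in 5 of the 8. Some counts fell with 1 library left out: to 2 for neural progenitors (without control 2 or Bcl6 library 1), to 3 (control 4 or Bcl6 library 2) and to 4 (control 3). The pluripotency count fell to 2 without control 2 or Bcl6 library 1 or 2, and that of spinal cord and hindbrain neurons to 1 without Bcl6 library 1. The part of these shifts in the values of the Hox, Meis and Pbx genes was not tested.

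**Figure D5:**
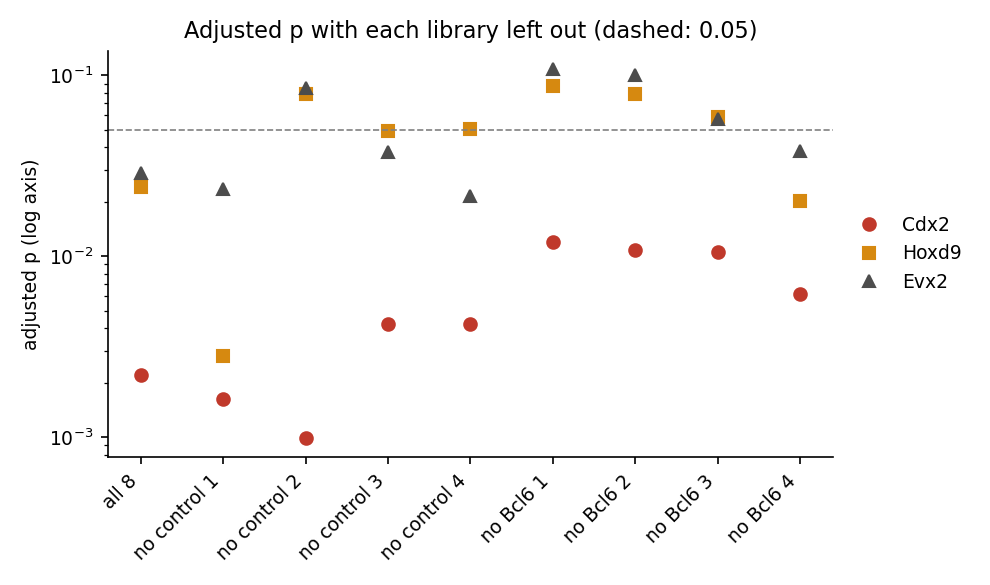
Adjusted p, on a log axis, of Cdx2, Hoxd9 and Evx2 with all 8 libraries and with each library left out; the dashed line is 0.05. Cdx2 stays at or below 0.0119, while Hoxd9 and Evx2 lie above the line in 5 and 4 of the 8 fits.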

How the data were processed

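The authors deposited 1 table of 14954 genes, and its expression values are a score: reads scaled to about 20 M per library and rounded up, as the values show (at least 99.62% lie on multiples of a fixed step). Per the submitters' processing notes, STAR 2.5.3a, HTSeq 0.9.1, edgeR 3.20.1 and mm10 were used, with no role or order, and the strand setting is not given in the sources used here. Decimal commas had become column breaks, so lines were rejoined by matching the CPM the authors deposited beside each value. The authors' own statistics were unreadable after this and stayed unused.

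Values were tested as log2(value + 1) with limma 3.58.1 in R 4.3.3, with a variance trend and without covariates, and p-values were adjusted over all genes by Benjamini-Hochberg. Fold changes on this scale understate those of low genes. The planned test for raw counts was not used because the values are not raw counts. The script was tested on simulated data. Transcript lengths and overlaps came from GENCODE M21, and promoters from RefSeq. Ratios between family members were tested by exact permutation in scipy 1.17.1. The members and the 17 lists were chosen with earlier results of these data known. Named by rule were called members, Cdx, Meis and Pbx genes, the highest member of each Hox cluster, and at most 3 called genes of a list. Values of some genes are not reported here.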

Additional observations from a re-analysis of the deposited data

Results flagged for a closer look

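In 32 genes named here or checked beside them, 64 groups of 4 libraries were searched for a library far from the other 3, where chance marks about 1 group in 20, and 5 were found. Cdx2 stood at 0.451 CPM in control 2, against 1.503 to 1.66 CPM in the other controls. Without control 2 the fold change of Cdx2 was 2.52 and its limma adjusted p 0.000982. Meis3 stood at 30.7 CPM in Bcl6 library 4, against 25.6 to 26.1 CPM in the other Bcl6 libraries. Pbx2 stood at 144.6 CPM in Bcl6 library 2, against 138.5 to 138.9 CPM. Sall4 stood at 126.2 CPM in control 2, against 135.9 to 136.5 CPM, and Eomes at 27.3 CPM in Bcl6 library 3, against 23.8 to 24.3 CPM.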

How the results depend on the processing

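The count of 2 members called higher was 1 with a minimum mean of 100, which leaves Hoxd9 untested, and 1 to 2 with 1 library left out. The count of 0 members called lower was 1 with array weights (Meis1), 1 once a trend on length and GC was removed (Pbx2) and 1 with the replicate block and that removal together. Over all genes, 1019 were called. The count was 2507 with array weights, 1822 with the trend removed, 1882 with the replicate block as well, and 308 (without Bcl6 library 1) to 1697 (without control 1) with 1 library left out. Signs reversed for Hoxb13 with array weights (0.013) and, with 1 library left out, for Hoxa2 (-0.52 to 0.0241) and Pbx4 (-0.32 to 0.0515). Of 104 fold changes of the members described, with 1 library left out, 97 kept their direction and side of the threshold, and of 159 under 13 other settings, 155 did. Cdx2 was called under all 21. The cause of these changes was not tested. Same-numbered libraries had deviations correlated at 0.05, 0.02, -0.04 and 0.26, which does not show pairing by number, and whether the cultures were paired is not known. With the replicate block Cdx2 had an adjusted p of 0.00405 and Hoxd9 0.00848, while Evx2 was no longer called (0.0555), Ezh2 was lost (0.0832), and 827 genes were called. Depth limits the Hox genes described, which rest on 8 to 87 reads per library.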
